A study of Mus musculus with 27 samples.

Results

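The pericentral genes described here were 10 of the 18820 genes measured on the arrays: Glul, Rhbg, Slc1a2, Slc1a4, Slc13a3, Oat, Axin2, Tbx3, Lgr5 and Cyp2e1. They were chosen by name, with the measured diet changes of these pups in both sexes known from an earlier look at the same arrays, and each gene was represented by the probe set listed with that gene alone whose mean over all 27 arrays was highest. All 10 had an intensity of at least 20 on 27 of 27 arrays. Of the 10, 9 passed both filters of the study and were among the 10810 genes tested. The exception was Cyp2e1, whose interquartile range of 0.0967 on the log2 scale lay just under the minimum of 0.1.

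The arrays measured liver RNA of 27 pups of C57BL/6J dams at 2 weeks of age, 1 array per pup, to ask how maternal diet changes the young liver in each sex. Dams ate a low fat diet (LFD, 10% of energy as fat, 18.0 mg cholesterol per kg) or a high fat diet of Western style (WSD, 45% and 196.5 mg per kg) for 6 weeks before mating with males on control diet, and then until the pups were killed. The groups were 6 males (m-LF) and 9 females (f-LF) of LFD dams, and 6 males (m-WS) and 6 females (f-WS) of WSD dams and the labels name no other treatment. Litters had been standardised to 5 to 7 pups, but the labels do not say which pups shared a dam, so that p-values measure the spread between pups.

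Liver lobules are divided into zones. Hepatocytes upstream, at the portal vein, turn ammonium into urea, whereas the last layer around the central vein takes up the ammonium that escapes and fixes it as glutamine. Wnt ligands and R-spondins from the endothelium of the central vein keep beta-catenin active in these last hepatocytes, and that activity sets the pericentral programme, to which glutamine synthetase, the ammonium channel Rhbg and the receptor Lgr5 belong.

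Promoter sequence was at hand from RefSeq (build GRCm38.p6) for 7 of the 10 genes, and was missing for Rhbg, Tbx3 and Lgr5. Each window ran from 250 bases before to 50 after 1 transcript start per gene. The start was the outermost of the gene for 5 of the 7. It lay 48199 bases inside the gene for Slc1a2 and 2521 bases inside it for Axin2. The windows of Slc1a2 and Axin2 therefore do not cover the outermost promoter. Beta-catenin acts through TCF/LEF factors, so the letters CTTTGAA and CTTTGAT were looked for on both strands. Of the 7 windows, those of Slc1a2 and Cyp2e1 held 1 match each, and these stretches are shown because they are the ones with such letters. Among all 32851 promoters of the table, 8.65% held a match. In Slc1a2 the match began 207 bases before that inner start (plus strand, chr2:102706188-102706287), and in Cyp2e1 135 bases before the start of the gene (plus strand, chr7:140763634-140763740). Capitals mark the matched letters, which in Slc1a2 read as the reverse complement. The windows of Glul, Slc1a4, Slc13a3 and Oat, and the inner one of Axin2, did not hold these letters.
Slc1a2: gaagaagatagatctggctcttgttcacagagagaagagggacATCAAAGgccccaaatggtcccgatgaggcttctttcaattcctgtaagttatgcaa
Cyp2e1: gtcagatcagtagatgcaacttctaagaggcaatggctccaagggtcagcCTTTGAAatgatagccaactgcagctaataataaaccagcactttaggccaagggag

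The values are log2 intensities, and all changes are differences on that scale. Hepatocyte markers were present throughout: 11 of 11 had an intensity of at least 20 on every array, and their summed level lay between 16.29 and 16.37 in every group. Some arrays stood apart. Xist, the RNA of the inactive X chromosome in females, was at 9.30 in m-LF6 and 7.92 in m-WS1, whereas the other 10 males lay at 4.50 or below and the lowest female was at 11.67. In m-LF6 the drug-metabolising enzyme Cyp2b10 had a signal of 7.93 and Igll1, a gene of B cell precursors, at 7.16, against highest values of 6.28 and 6.00 in the other m-LF pups. Both genes were also highest among the f-LF pups in f-LF8 (7.76 and 7.48). Part of each array name is a number, undefined in the labels, which is 37, 49 or 50 on LFD and 39, 40 or 48 on WSD. Number 50 is that of m-LF5, m-LF6, f-LF8 and f-LF9. Each number lies within 1 diet and may mark litters. Litter mates would count as separate pups in the tests, which then understate the error.

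In males, several of the 10 genes were lower upon maternal WSD, at most by 2.06-fold (Rhbg). All 9 members tested had a negative change, and 5 of them (Slc13a3, Glul, Slc1a4, Rhbg and Lgr5) fell at the study's threshold, a p of at most 0.01. Of all genes tested, 2.6% fell at this threshold. Since the list was made with this comparison known, these counts and p-values describe the members and are no independent evidence. The direction follows the diets in the array titles; a gene list of the study names the opposite direction for males, whereas its text uses that of the titles. In whole liver, fewer pericentral cells and less RNA per such cell cannot be told apart.

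Glul encodes glutamine synthetase. The lowest, median and highest signals were 11.18, 11.62 and 11.64 in m-LF and 10.63, 10.83 and 11.03 in m-WS. Every m-WS pup lay below every m-LF pup, and the lowest m-LF pup was m-LF6. The means were 11.52 ± 0.18 and 10.85 ± 0.16 (SD, n = 6 each), a change of -0.67 (SE 0.16, 95% interval -0.99 to -0.35) or 1.59-fold lower, with an adjusted p of 0.0392 in limma. A second probe set listed with Glul alone gave the same change of -0.67 (SE 0.17), and 0.01 in females.

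Rhbg forms an ammonium channel in the membrane of the same pericentral cells. Signals ran from 7.45 over a median of 8.46 to 8.72 in m-LF, and from 6.92 over 7.30 to 7.53 in m-WS. The ranges overlapped through m-LF6 at 7.45, and the other 5 m-LF pups lay above all m-WS pups. The change of -1.04 (SE 0.25, interval -1.55 to -0.53) was 2.06-fold lower, the largest fall among the members (adjusted p = 0.043 in limma).

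The carriers of amino acids and dicarboxylates were lower as well, but they did not all pass the threshold. Slc13a3, a sodium-driven carrier that takes up dicarboxylates such as alpha-ketoglutarate, ran from 11.13 over 11.54 to 11.76 in m-LF and from 10.80 over 10.93 to 10.99 in m-WS. The m-WS values were close together (SD 0.08) and all below the m-LF values. The change was -0.60 (SE 0.12, adjusted p = 0.0173 in limma), the smallest p among the members. Genes in which every m-WS pup lay below every m-LF pup made up 0.537% of the genes tested, and Glul and Slc13a3 were the 2 members among them.

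Slc1a4 exchanges small neutral amino acids such as alanine, serine and cysteine. It ran from 9.15 over 9.37 to 9.85 in m-LF and from 8.77 over 8.95 to 9.21 in m-WS, with only m-WS1 inside the m-LF range. Its change was -0.43 (SE 0.10, adjusted p = 0.0392 in limma). Slc1a2, the glutamate carrier GLT-1, ran from 7.25 to 8.36 in m-LF and from 6.98 to 7.77 in m-WS. The ranges overlapped broadly, and the change of -0.55 (SE 0.22) did not pass the threshold (adjusted p = 0.22 in limma).

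Among the Wnt targets, Lgr5, the receptor for R-spondins, fell. Its lowest, median and highest values were 7.75, 8.16 and 8.50 in m-LF and 7.42, 7.62 and 7.87 in m-WS. Only m-WS5 lay above the lowest m-LF pup, which was m-LF6. The change was -0.52 (SE 0.17, adjusted p = 0.138 in limma). Axin2, a scaffold of the complex that degrades beta-catenin and a feedback target of the pathway, had medians of 6.47 and 6.19 and a change of -0.29 (SE 0.11, adjusted p = 0.206 in limma). Tbx3, a transcriptional repressor and beta-catenin target, had medians of 7.81 and 7.56 and a change of -0.23 (SE 0.12, adjusted p = 0.383 in limma). Neither passed the threshold, and in both genes the ranges of the groups overlapped.

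Oat and Cyp2e1, which are also pericentral enzymes, changed least. Oat, the aminotransferase that turns ornithine towards glutamate, ran from 9.75 to 10.11 in m-LF and from 9.40 to 9.97 in m-WS. The m-WS values split by number: the 2 pups of number 40 were at 9.40 and 9.43 and the 4 pups of number 48 between 9.84 and 9.97. The change was -0.15 (SE 0.13, adjusted p = 0.67 in limma). Cyp2e1, which oxidises ethanol, ran from 12.69 to 12.76 in m-LF and from 12.56 to 12.72 in m-WS, a difference of -0.05 (exact permutation test, 2-sided, p = 0.0779). Cyp2e1 had the highest signals of the members, and the highest signal on any array was 13.58. Whether its level limited its change was not tested.

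**Figure D1:**
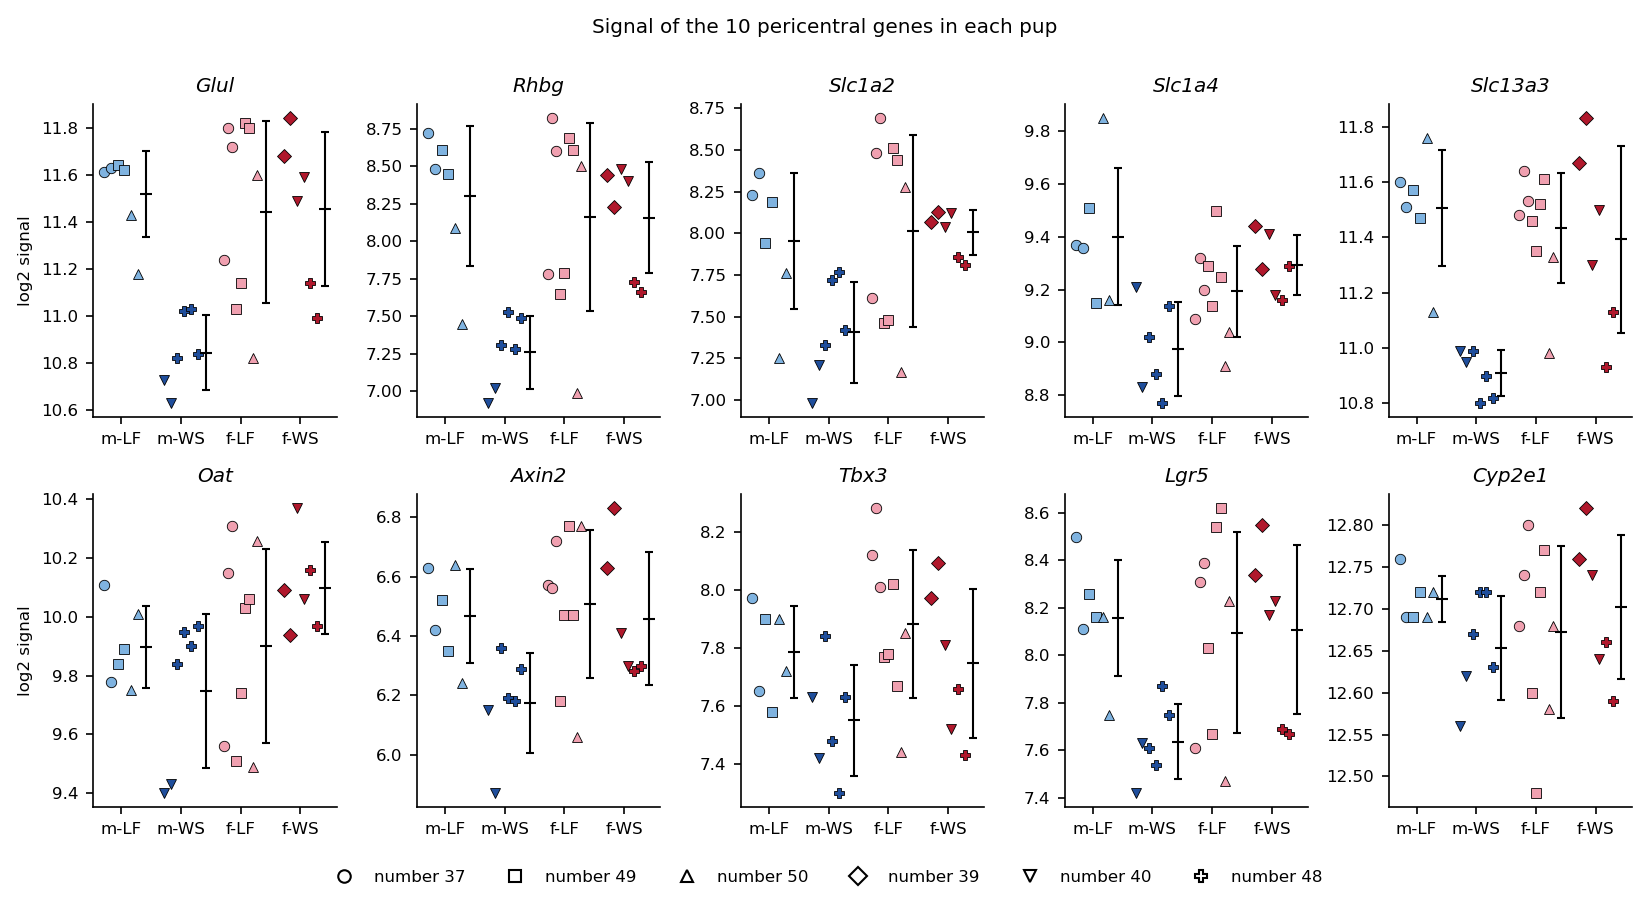
Log2 signal of each of the 10 genes (1 panel each, with its own scale that does not start at 0) in every pup of the 4 groups; points are pups, their shape gives the number of the array name, and bars to the right give mean ± SD. In the panels of Glul and Slc13a3 all m-WS pups lie below all m-LF pups, and in those of Glul, Rhbg and Slc1a2 the f-LF pups fall into a low and a high set.

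At an adjusted p under 0.05, 4 members (Slc13a3, Glul, Slc1a4 and Rhbg) fell in males, and 0.407% of all genes tested did. Without m-LF6 and m-WS1, the males with an Xist signal, the same count was 4, and the changes were -0.71 for Glul, -1.14 for Rhbg, -0.69 for Slc13a3, -0.52 for Slc1a4 and -0.56 for Lgr5. With the number as a random block, the changes of Glul (-0.64), Rhbg (-1.02), Slc13a3 (-0.56) and Slc1a4 (-0.42) stayed within the threshold of 0.01 in limma, that of Lgr5 (-0.48) did not, and the smallest adjusted p was 0.0643. The count of 4 at the adjusted threshold fell to 0 when number 37, 40, 48 or 49, m-LF2 or m-LF3 was left out. It was 1 without m-LF1, m-LF5, m-WS2, m-WS3, m-WS4 or m-WS5 and 2 without m-LF4, m-WS1 or m-WS6, so that among the males only the removal of m-LF6 left it at 4. The count of 5 at p 0.01 was 3 without number 48. Within the arrays whose names begin with G073, which hold 4 m-LF and 3 m-WS pups, the changes of Glul, Rhbg, Slc13a3 and Slc1a4 were -0.65, -1.22, -0.70 and -0.52. Within those that begin with G074, with 2 and 3 pups, they were -0.64, -0.69, -0.40 and -0.27 and none passed p 0.01 in limma.

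In females, none of the 9 members tested changed upon maternal WSD, at a threshold that 5.19% of all genes tested passed in either direction. Their changes ran from -0.13 for Tbx3 to 0.20 for Oat, and the smallest adjusted p was 0.468 in limma (Oat), so that 0 of 9 also passed an unadjusted p of 0.05. For Glul, the lowest, median and highest signals were 10.82, 11.60 and 11.82 in f-LF and 10.99, 11.54 and 11.84 in f-WS. The groups covered the same range, with means of 11.44 ± 0.39 (SD, n = 9) and 11.45 ± 0.32 (SD, n = 6) and a change of 0.01 (95% interval -0.28 to 0.31). For Rhbg, signals ran from 6.99 to 8.82 in f-LF and from 7.66 to 8.48 in f-WS, with a mean of 8.16 in both (interval of the change -0.47 to 0.46). The intervals do not show that these levels stayed the same.

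Slc13a3 in females was at 11.43 ± 0.20 in f-LF and 11.39 ± 0.34 in f-WS, a change of -0.04 (interval -0.26 to 0.18). Slc1a4 was at 9.19 ± 0.17 and 9.29 ± 0.12, a change of 0.10 (interval -0.09 to 0.29). The Wnt targets Lgr5 and Axin2 changed by 0.01 and -0.05 between the same groups, with adjusted p of 0.987 and 0.882 in limma. Cyp2e1 differed by 0.03 (exact permutation test, 2-sided, p = 0.6).

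For 7 of the 10 genes, the females of LFD dams had the largest SD of the 4 groups. In f-LF1, f-LF4, f-LF5 and f-LF8, Glul was between 10.82 and 11.24, and in the other 5 between 11.60 and 11.82. The same 4 pups were lowest for Rhbg (6.99 to 7.79 against 8.50 to 8.82), Slc1a2 (7.17 to 7.61 against 8.28 to 8.69), Oat (9.49 to 9.74 against 10.03 to 10.31) and Lgr5 (7.47 to 8.03 against 8.23 to 8.62). They carry the numbers 37, 49, 49 and 50, so that each of the LFD numbers held pups of both kinds. For Slc1a4, Slc13a3, Axin2 and Tbx3 the values of these 4 pups overlapped with those of the other 5. The shares of all genes with the largest SD in f-LF, or with these 4 pups lowest, were not determined. These counts therefore only describe the members, and whether the split is a trait of these genes or of the arrays was not tested.

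**Figure D2:**
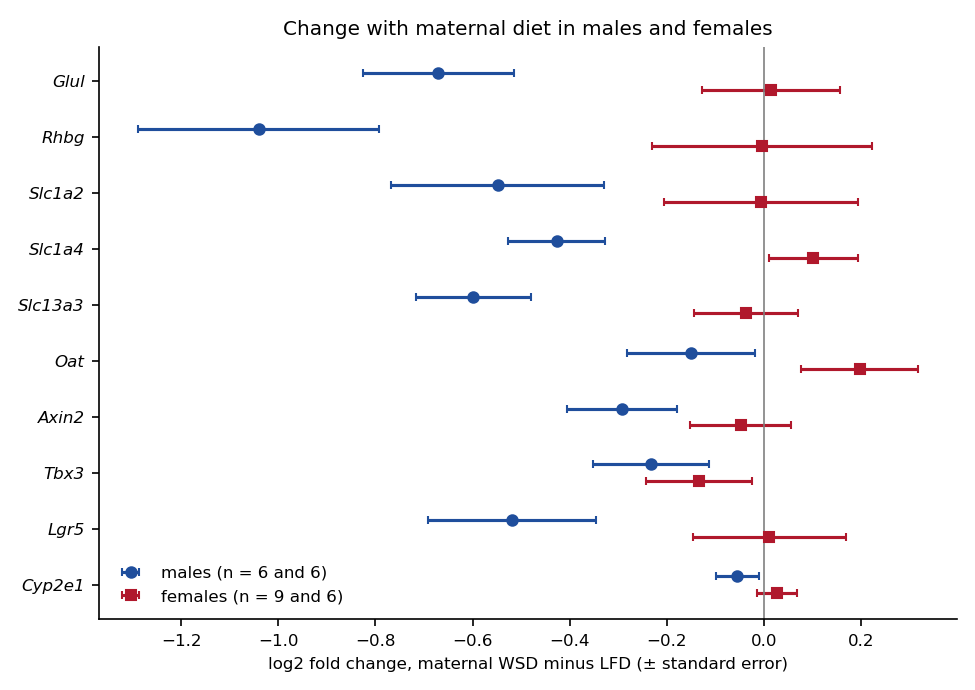
Change of each gene with maternal diet (log2, WSD minus LFD) in males and females, with bars of ± 1 standard error from the limma fit; Cyp2e1 is from the fit without filters. The male estimates lie left of 0 for all 10 genes, and the female estimates lie between -0.13 and 0.20.

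The difference between the sexes in the response to diet passed a p of 0.01 for 4 of the 9 members, where 2.5% of all genes tested did. Male minus female responses were -0.53 for Slc1a4 (SE 0.14), -0.56 for Slc13a3 (SE 0.16), -0.68 for Glul (SE 0.21) and -1.04 for Rhbg (SE 0.34). In limma their adjusted p was 0.316 for Slc1a4 and 0.366 for the other 3, and no gene of the table reached 0.05. For Lgr5 the difference was -0.53 (adjusted p = 0.453 in limma), and for Slc1a2, Oat, Axin2 and Tbx3 it lay between -0.54 and -0.10 with adjusted p from 0.538 to 0.878. This comparison shares its males with the one above. The list was made with the changes in both sexes known, so these counts and p-values are no independent evidence. The count of 4 was 1 without number 39, which holds 2 f-WS pups, and 2 without number 40 or number 49.

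On maternal LFD the sexes were close. None of the 9 members differed at p 0.01, a threshold passed by 1.37% of the genes tested. The smallest p was that of Slc1a4, which was 0.21 higher in males (adjusted p = 0.74 in limma). For Glul the difference was 0.08 (interval -0.21 to 0.37) and for Rhbg 0.14 (interval -0.32 to 0.60). Without m-LF6 and m-WS1, Slc1a4 passed with a difference of 0.26 (adjusted p = 0.446 in limma).

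On maternal WSD the males were lower than the females. All 9 members had a negative difference, with a median of -0.47 against -0.017 over all genes tested. Of the 9, 4 passed p 0.01, whereas 2.29% of the genes tested were lower in males at that threshold. The list was made with the diet changes of these pups known, so these counts are no independent evidence. Slc13a3 differed by -0.48 (SE 0.12, adjusted p = 0.0916), Glul by -0.61 (SE 0.16, adjusted p = 0.117), Rhbg by -0.90 (SE 0.25, adjusted p = 0.171) and Slc1a4 by -0.32 (SE 0.10, adjusted p = 0.218), in limma. For Rhbg, the m-WS pups lay between 6.92 and 7.53 and the f-WS pups between 7.66 and 8.48, with no overlap. Slc1a2 was also without overlap (6.98 to 7.77 against 7.81 to 8.13), although its difference of -0.60 had an adjusted p of 0.3 in limma and lay just outside the threshold. The share of all genes without overlap between these groups was not determined.

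Males and females of the same number could be set against each other for 5 of the 6 numbers. Within number 40, on WSD, all 10 genes had a lower mean in the 2 males than in the 2 females, and for 8 of them both males were below both females. The differences there were -1.46 for Rhbg, -0.98 for Slc1a2, -0.85 for Glul, -0.80 for Oat, -0.67 for Lgr5 and -0.43 for Slc13a3. Within number 48, also on WSD, with 4 males and 2 females, 7 genes had a lower mean in males and 3 (Rhbg, Slc1a2 and Slc1a4) were without overlap. The shares of all genes with such orders within a number were not determined, so these counts only describe the members. Here the differences were smaller, -0.29 for Rhbg, -0.27 for Slc1a2 and Slc1a4, -0.16 for Slc13a3 and -0.14 for Glul. The f-WS pups of number 48 were the lowest females of their group for Glul (10.99 and 11.14), Rhbg, Slc1a2, Slc13a3 and Lgr5.

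On LFD, the means of 4, 3 and 1 of the 10 genes were lower in males within numbers 37, 49 and 50. Number 39 holds females only, with the highest Glul and Slc13a3 means of the f-WS pups (11.76 and 11.75). With the number as a fixed block, an alternative added after the data were seen, the difference on WSD was -0.79 for Rhbg, -0.44 for Glul, -0.43 for Oat and -0.27 for Slc13a3, each with a p of at most 0.01 in limma, and that of Slc1a4 (-0.28) did not pass (adjusted p = 0.477). In the same fit, the difference between the sexes in the diet response passed the same threshold for Rhbg, Slc13a3 (-0.37) and Slc1a4 (-0.49), and not for Glul (-0.55, adjusted p = 0.358). The count on WSD was 1 without number 39 or number 40, 7 without number 48 or f-LF8 and 8 without number 50.

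**Figure D3:**
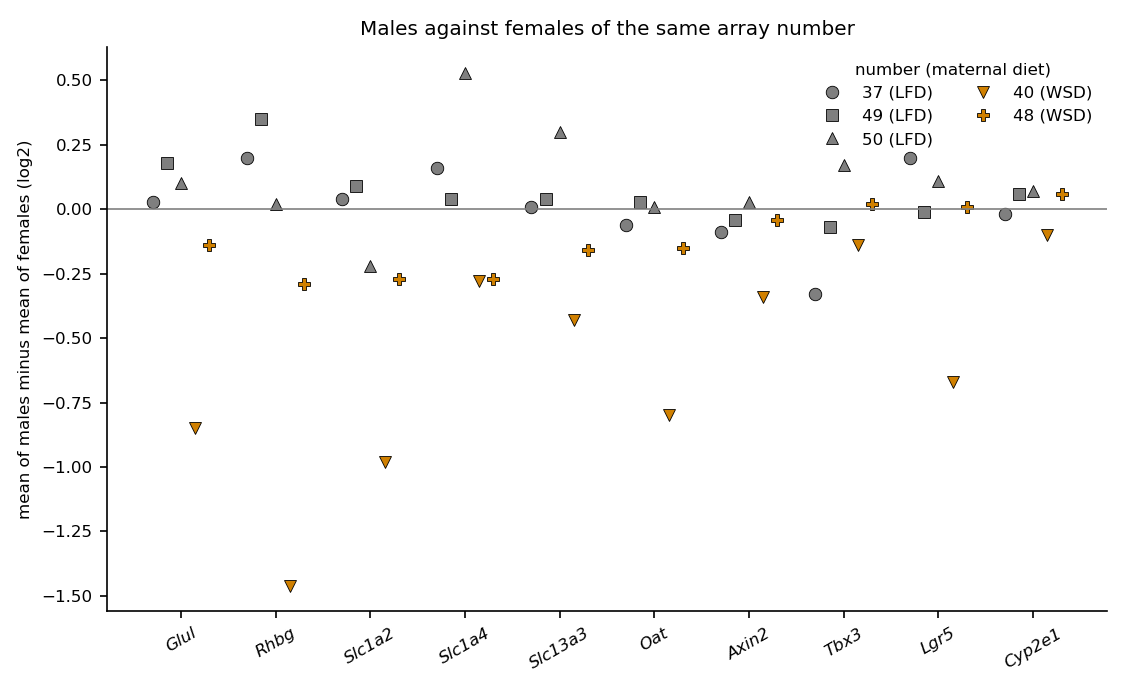
Mean of males minus mean of females (log2) for each gene among pups whose array names share a number, in grey for LFD and orange for WSD; 2 to 4 pups per sex and number, no error is drawn. The points of number 40 lie furthest below 0, at -1.46 for Rhbg, for every gene except Tbx3, where that of number 37 is lower (-0.33 against -0.14), and those of number 48 between -0.29 and 0.06.

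Within groups, most pairs of the genes varied together from pup to pup. With the group means removed, 44 of the 45 pairs of members had a positive correlation over the 27 pups, and 34 had an adjusted p under 0.05 (permutation test within groups, 100000 resamples, 2-sided; 30 for Spearman's rho). Glul and Rhbg were most alike (r = 0.91, rho = 0.84, adjusted permutation p = 0.00015, r = 0.91 without the 2 pups farthest from the median of Glul). Glul with Lgr5 gave r = 0.89 and rho = 0.86 (0.90 without 2 pups), and Glul with Slc1a2 r = 0.84 and rho = 0.86 (0.84 without 2 pups). Axin2 and Tbx3, both Wnt targets, gave r = 0.74 and rho = 0.76 (0.71 without 2 pups). Slc1a4 followed Glul weakly (r = 0.29, rho = 0.27, adjusted permutation p = 0.143), and Slc1a2 and Slc1a4 not detectably (r = -0.02). Pairs of other genes were not counted, so these counts of pairs and those below have no share over all genes beside them.

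Part of this rested on the low and high sets of f-LF pups. Within f-LF all 45 pairs were positive, with r = 0.98 for Glul and Rhbg. Over the 18 pups of the other groups 40 of 45 were positive, with r = 0.81 for Glul and Rhbg, 0.86 for Glul and Lgr5, 0.62 for Glul and Slc1a2 and 0.81 for Axin2 and Tbx3, but 0.19 for Glul and Oat. Among the 12 males alone 34 of 45 were positive, with 0.87 for Glul and Rhbg, but -0.66 for Slc1a2 and Slc1a4 and -0.42 for Slc13a3 and Oat. With the means of each number within each group removed, 43 pairs were positive and Glul and Rhbg gave 0.92. Pups of the same number may be litter mates, which the permutations did not take into account.

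**Figure D4:**
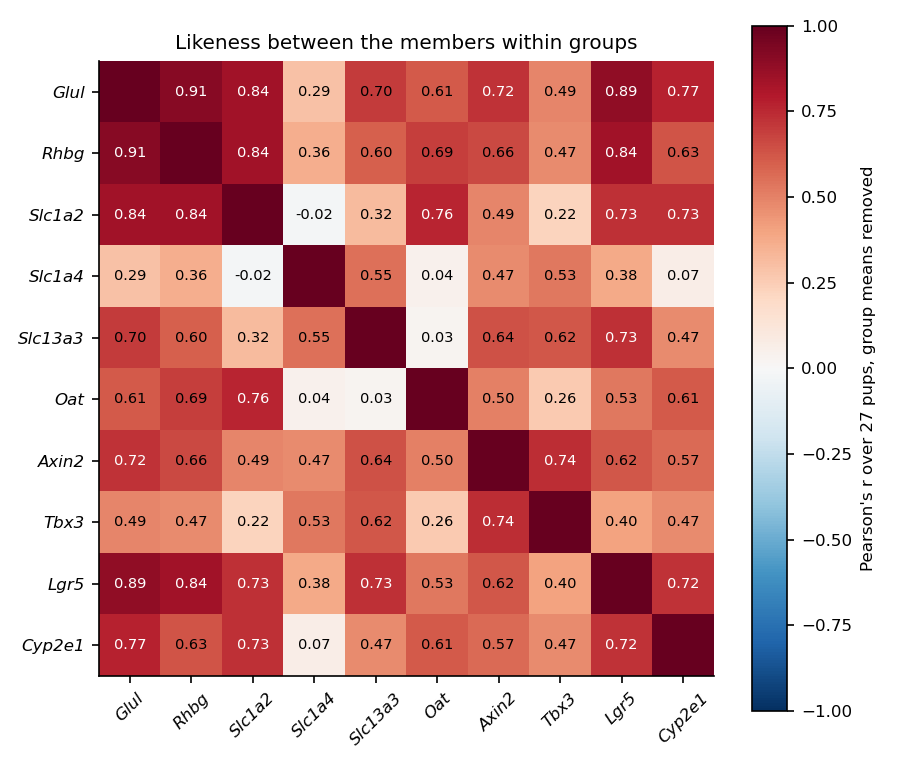
Pearson's r between the log2 signals of each pair of the 10 genes over 27 pups after the group means were removed, from blue (-1) over white (0) to red (1). The pairs of Glul, Rhbg, Slc1a2 and Lgr5 are between 0.73 and 0.91, and Slc1a4 is the gene least like Glul (0.29).

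Of all genes tested, those most like Glul over the 27 pups were Nxpe2 (r = 0.93), Wnt2 (0.92), Cdh13 (0.92), Rhbg (0.91) and Hsd3b7 (0.91). Lgr5 ranked 11 and Slc1a2 21 in that order, out of 10810 genes, whereas Slc1a4 ranked 2204. Those most like Axin2 were Selenoi (0.80), Aqp7 (0.78), Rspo3 (0.77), Bdh1 (0.77) and Pklr (0.75). Wnt2 is a ligand and Rspo3 an R-spondin made by the endothelium of the central vein. Wnt2 had means of 6.54 ± 0.41 in m-LF and 5.62 ± 0.32 in m-WS (SD, n = 6 each) and of 6.32 and 6.33 in f-LF and f-WS, a change of -0.92 in males (adjusted p = 0.057 in limma) and 0.02 in females. In m-LF6 it was at 5.75 and in f-LF8 at 5.25, the lowest of their groups.

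The other genes of the pericentral zone moved unevenly in males. Of 19 tested, 4 fell and 1 rose at p 0.01, with a median change of -0.20 against 0.007 over all genes. Of all genes tested, 2.6% fell and 3.02% rose in males at this threshold. The cytochromes Cyp2c50 (-1.52, SE 0.25, adjusted p = 0.00448 in limma), Cyp2c54 (-1.54, SE 0.38, adjusted p = 0.0466) and Cyp2c37 (-0.41, adjusted p = 0.107) fell, as did Gulo (-0.23). Cyp2c genes are alike in sequence, so their probe sets may share targets. Aldh1a1, which oxidises retinal, rose by 0.87 (adjusted p = 0.0736 in limma). In females 1 of the 19 fell, Cyp2c29 by 0.28 on the log2 scale, with a median of 0.01, where 5.19% of all genes tested passed in either direction. At an unadjusted p of 0.05 in limma 6 of the 19 passed in females, among them Cyp2c50 (-0.59), Cyp2c54 (-0.74) and Aldh1a1 (0.56), with the sign they had in males. The difference between the sexes in the response passed p 0.01 for 0 of the 19 and an unadjusted p of 0.05 for 6 in limma.

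Among 16 other Wnt feedback targets, 4 fell and 1 rose in males (2.6% and 3.02% of all genes), with a median of -0.08, and none changed in females in limma, not even at an unadjusted p of 0.05. Znrf3 (-0.28), which removes Wnt receptors from the membrane, the pathway inhibitors Nkd1 (-0.33) and Notum (-0.46), and Tnfrsf19 (-0.43) fell, whereas Zbtb12 rose by 0.36 (adjusted p = 0.0494 in limma). Of 23 Wnt ligands, receptors and core components tested, 3 fell in males: Wnt2, Rspo3 (-0.41, adjusted p = 0.0839 in limma) and the co-receptor Lrp5 (-0.20). Ctnnbip1, which keeps beta-catenin from TCF factors, rose in both sexes, with changes of 0.28 and 0.16 for sons and daughters (adjusted p = 0.0351 and 0.189 in limma). The median of that list was -0.02 in males and 0.02 in females.

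Few of the other genes of glutamine and glutamate handling passed the threshold, which 5.62% of all genes tested passed in males and 5.19% in females, in either direction. Of 17 other enzymes of glutamine, glutamate and proline, 1 rose in males (Gclc, of glutathione synthesis, by 0.14) and 1 in females (Odc1, of polyamine synthesis, by 0.26), with medians of 0.03 and 0.07, and at an unadjusted p of 0.05 in limma 2 and 5 passed. Of 16 other carriers, Slc7a5, a carrier of large neutral amino acids, fell by 0.36 and the mitochondrial glutamate carrier Slc25a22 by 0.30 in males, on the log2 scale. In females 1 carrier fell, Slc25a12 by 0.13, which supplies aspartate from mitochondria in exchange for glutamate. The list medians of the carriers were near 0 in both sexes (-0.01 in females).

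At the other end of the lobule, 5 of 20 urea cycle and periportal genes rose and none fell in males, with a median of 0.13, where 3.02% of all genes rose. They were Hsd17b13, a lipid droplet protein (0.25, adjusted p = 0.0392 in limma), Aldh1b1 (0.57, adjusted p = 0.0607), Gldc, of glycine cleavage (0.25, adjusted p = 0.0738), Ftcd (0.20, adjusted p = 0.104) and Hal, both of histidine breakdown (0.41 for Hal, adjusted p = 0.159). Of 26 genes listed, 23 had a probe set and 20 were tested, so the urea cycle is covered only in part. Its genes among those tested, Arg1, Asl, Nags and Slc25a15, had changes of 0.15, 0.12, 0.13 and 0.02 in males and did not pass. Of the 20 genes, 4 had a negative change in males, and none of these passed: Pck1 (-0.18), G6pc (-0.16), Cyp2f2 (-0.04) and Cdh1 (-0.03). In females 1 of the 20 fell, Cyp2f2 by 0.35, and the median was -0.01.

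**Figure D5:**
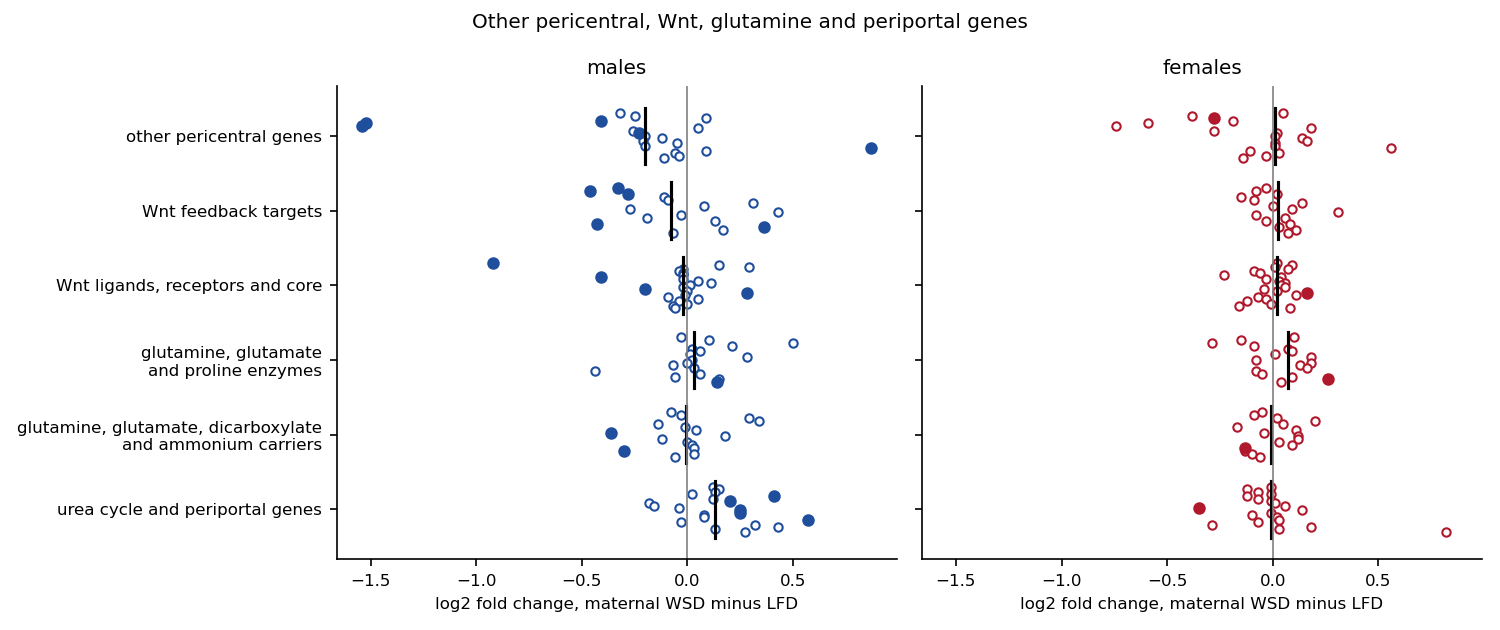
Change with maternal diet (log2, WSD minus LFD) of the genes of 6 other lists in males (left) and females (right); each circle is a gene, filled where p was at most 0.01 in limma, and black bars give list medians. In males the median of the other pericentral genes is -0.20 and that of the periportal genes 0.13, and in females they are 0.01 and -0.01.

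Markers of other cells moved with the diet in males as well, and their part in the results above was not tested. Of 15 endothelial markers, 5 fell, where 2.6% of all genes tested did: Wnt2, Rspo3, Vwf (-0.54), Thbd (-0.59) and Clec4g (-0.38). The median of the 15 was -0.04 in males and also -0.04 in females, and 11 had a negative change in males. Their summed level ran from 12.59 to 12.95 in m-LF and from 12.47 to 12.81 in m-WS. Of 11 stellate cell markers, Reln (-0.22) and Lrat (-0.24) fell, with sums of 12.81 to 13.01 and 12.73 to 12.87. Their median was -0.05, and 6 of the 11 had a negative change. Of all genes tested, 3.02% rose in males. Of 6 B cell precursor genes 4 rose (Igll1 1.14, Ebf1 0.89, Cd79a 0.84, Pax5 0.72), with a median of 0.79 and sums of 8.43 to 9.87 and 9.31 to 10.04. Of 10 neutrophil genes 3 rose (Cxcr2 0.39, S100a9 0.82, Ltf 0.73), with a median of 0.67 and sums of 9.48 to 11.15 and 10.10 to 10.82. Of 4 cholangiocyte genes tested 3 had a negative change (median -0.22) and 3 passed an unadjusted p of 0.05, whereas the 1 that passed p 0.01, Sox9, rose by 0.43 in limma (sums of all 5 markers 7.65 to 8.82 and 8.05 to 8.32). Of 8 Kupffer cell and 4 erythroid genes none changed, also at an unadjusted p of 0.05 in limma. In females none of these markers passed p 0.01 in limma, and 2 neutrophil genes and 1 B cell precursor gene passed an unadjusted p of 0.05. Slc13a3 and Rhbg are also known to be expressed in kidney tubules. Of 7 kidney tubule markers, Umod, Slc12a1, Slc12a3 and Kap were under an intensity of 20 on every array. In contrast, 1 marker was at 20 or more on every array. The sums of all 7 markers were 6.74 to 6.91 in m-LF and 6.72 to 6.89 in m-WS. A kidney share in the signals of Slc13a3 and Rhbg was not tested. The sums of 6 pancreatic markers lay between 6.53 and 6.81 in all groups, and 1 of them was at an intensity of 20 or more on every array.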

How the data were processed

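Each of the 27 pups gave 1 Affymetrix Mouse Gene 1.1 ST array of its liver RNA. The authors normalized all arrays jointly by RMA and deposited log2 intensities. The 35556 probe sets of the deposited table are those of the manufacturer, although according to the methods they were regrouped by Entrez gene. RMA's quantile normalization makes array medians alike (5.34 to 5.43) and can hide a shift of all genes. The genome build of the files and the version of the RMA software are not given in the sources used here. Of the probe sets, 21218 were listed with a single gene, 1881 with several and 12457 with none. Per gene the single-gene probe set with the highest mean was kept.

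Following the methods, genes entered the test if 4 or more arrays had an intensity of 20 or higher and the interquartile range was 0.1 or more. The fit used limma 3.58.1 (R 4.3.3), with a mean for each of the 4 groups and eBayes with an intensity trend. P-values were adjusted by Benjamini-Hochberg over 10810 genes, and a call is a p of at most 0.01. Cyp2e1 was compared by exact permutation tests. The number of pups limits the precision. Counts of changed genes in the other lists cover only the listed genes that passed both filters. The fit was tested on simulated data, which cannot show whether pups of the same number are independent in these data. The members, the 16 other lists and the tests were chosen with earlier results of these data known. Named were all members, up to 4 genes of smallest p per list, the 5 genes most like Glul and Axin2, and Xist, Cyp2b10, Igll1 and Wnt2. Gulo, Notum, Hal, Arg1, Asl, Nags, Slc25a15, Pck1, G6pc, Cdh1 and the kidney markers under an intensity of 20 were named after their values were seen. Alternatives covered filters, variance, normalization, weights, blocks, subsets and left-out pups. Figures were drawn with matplotlib 3.10.9.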

Additional observations from a re-analysis of the deposited data

Results flagged for a closer look

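The interaction term of the limma fit, male minus female log2 response to maternal WSD, passed an unadjusted p of 0.01 for 4 members. They were Glul (-0.68), Rhbg (-1.04), Slc1a4 (-0.53) and Slc13a3 (-0.56). In limma the adjusted p was 0.316 for Slc1a4 and 0.366 for Glul, Rhbg and Slc13a3, and no gene tested passed the adjusted threshold. The members were chosen with the changes in both sexes known, so these p-values are no independent evidence. With the number as a fixed block, Glul (-0.55) did not pass p 0.01. The changes of the same genes in females lay between -0.04 and 0.10. The value of f-LF8 for Slc13a3, 10.98, was far from those of the other 8 females of LFD dams. It was the 1 pup found among 40 sets of values looked at, where chance gives about 1 in 20.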

How the results depend on the processing

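Over 48 alternatives, the number of members changed in males lay between 0 and 7, and the changes of Glul, Rhbg, Slc1a4, Slc13a3 and Lgr5 kept their sign in all. Alternatives that left out only females, dropped a filter or the intensity trend, or fitted each sex alone could not alter these male changes. A kept sign there was fixed in advance. The counts in males, in females, in the difference between the sexes, on LFD and on WSD lay between 3 and 6, 0 and 0, 1 and 5, 0 and 1, and 1 and 8 when single pups or numbers were left out. With the G074 arrays alone, where 2 to 4 pups per group are left, the counts were 0 in males, 0 for the difference and 2 on WSD, and with the G073 arrays alone 1 in females (Tbx3), 2 for the difference and 2 on WSD. Without m-LF6 and m-WS1 the count on LFD was 1. The number of members at an adjusted p under 0.05 in males, 4 in the report, was 0 after averaging same-sex pups that share a number, 1 with the array name prefix as a block or without filters, and 3 without the IQR filter. Of all genes, 608 passed p 0.01 in males, 242 after that averaging and 965 without number 50. Deviations of pups with the same replicate number in the titles correlated between -0.255 and 0.109 in males and between -0.218 and 0.264 in females. Pups with different replicate numbers were not compared, so these values cannot decide whether the replicate numbers pair the pups. With the replicate block the count on WSD was 7 and the other counts were as in the report, and the change of Glul in females was -0.0034 and the difference for Tbx3 0.02. Fitting each sex alone gives no comparison between the sexes.

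The signs of the following changes turned. In females these were Glul with array weights (-0.07) and in the G073 arrays (-0.17). Rhbg and Slc1a2 gave 0.01 and 0.01 with the number as a random block, 0.39 and 0.15 in the G074 arrays, and 0.04 and 0.02 with pups of the same number and sex averaged. In the G074 arrays Slc13a3 gave 0.17, Axin2 0.26 and Tbx3 0.23. Lgr5 gave -0.00073 with median centring, -0.0013 with repeated quantile normalization, -0.08 with array weights and -0.09 in the G073 arrays. The difference between the sexes for Tbx3 was 0.001 in the G073 arrays and 0.04 with the number as a fixed block. When pups or numbers were left out, Oat in males ran from -0.49 to 0.02, and in females Glul from -0.14 to 0.21, Rhbg from -0.15 to 0.23, Slc1a2 from -0.11 to 0.12, Slc13a3 from -0.21 to 0.14, Axin2 from -0.18 to 0.04, Lgr5 from -0.16 to 0.22 and Cyp2e1 from -0.02 to 0.06. The difference for Tbx3 ran from -0.23 to 0.04. The cause was not tested.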
